A study of Mus musculus with 13 samples.

Results

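The genes described here are 39 ligands, secreted antagonists and receptors of the bone morphogenetic protein (BMP) and transforming growth factor beta (TGF-beta) family, out of 55232 genes with a promoter row. They comprise 25 ligand genes, 12 genes of antagonists or other modulators and 2 receptor genes. Members were found by gene symbol in the deposited promoter table, where they hold 55 of the 77489 rows used. The regions called for the mark that overlap those rows by at least 1 bp were added, which gave 42 of 57909 regions, at 34 of the 39 genes. The rule uses gene symbols and no measured value, but the group was proposed with earlier results of these data known.

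The libraries are ChIP-seq of mouse embryonic stem cells (ESCs) lacking SAFB and SAFB2, a pair of related nuclear RNA-binding proteins, and of wild-type (WT) cells. All cells belong to a male CAST/B6 line with a Rosa26-RMCE cassette, were given doxycycline for 3 days and were fixed with 0.6% formaldehyde; the sources used here do not say what doxycycline induced. The double knockout (DKO) has 4 libraries for trimethylated lysine 27 of histone H3 (H3K27me3) and 2 for total H3, and WT has 5 and 2. Clone 4 gave DKO replicate 1 for H3K27me3, and clone 13 gave the remaining DKO libraries, total H3 included. DKO replicate 3 and WT replicate 4 carry the word Old in their labels, DKO replicate 4 and WT replicate 5 the word New, and the other H3K27me3 libraries neither word. WT replicates 2 and 3 have library names with other stems than WT replicates 1, 4 and 5. No label states that replicates were separate cultures, so the p-values below describe only how far these libraries spread, and that spread may be technical. Promoter rows held 983501 to 1399967 counts in DKO libraries and 798466 to 1427771 in WT libraries, and regions held 2244851 to 3035866 counts in DKO libraries and 1818647 to 3134799 in WT libraries. Chromosome 11 took 8.93% to 10.5% of the H3K27me3 region counts in DKO libraries, against 7.68% to 8.42% in WT libraries. The lowest DKO share was that of clone 4, and the libraries of clone 13 had 10.04% to 10.5%. In total H3 the shares were 10.09% and 9.85% in DKO, against 8.07% and 8.11% in WT libraries. Nog is the only member on that chromosome. Levels are CPM, reads scaled to a common library size after TMM normalisation, and a ChIP of many cells cannot tell fewer marked cells from less mark per cell.

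Ligands of this family bind pairs of type I and type II serine/threonine kinase receptors, which phosphorylate SMAD proteins that move to the nucleus and regulate genes. BMPs mostly signal through a different SMAD branch from TGF-betas, activins and Nodal. Secreted antagonists such as noggin, chordin, gremlin and follistatin bind the ligands and keep them from their receptors. In ESCs, BMP4 together with leukaemia inhibitory factor helps to hold off neural differentiation, and Nodal and activin signals promote mesoderm and endoderm when cells leave pluripotency. H3K27me3 is deposited by Polycomb repressive complex 2, and in ESCs it lies over CpG-rich promoters of many developmental regulators.

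The promoter windows below are from RefSeq on GRCm38.p6 and reach from 250 bases before to 50 bases after a start site. They are shown because the start sites of Inhbb, Bmp4 and Grem1 lay inside regions with less H3K27me3 in DKO libraries, that of Cer1 lay between a pair of short regions called in DKO alone, and that of Nodal lay in no region. Capitals mark the dinucleotide CG, the motif searched, which reads the same on both strands.
Inhbb, chr1:119422199-119422498, minus strand: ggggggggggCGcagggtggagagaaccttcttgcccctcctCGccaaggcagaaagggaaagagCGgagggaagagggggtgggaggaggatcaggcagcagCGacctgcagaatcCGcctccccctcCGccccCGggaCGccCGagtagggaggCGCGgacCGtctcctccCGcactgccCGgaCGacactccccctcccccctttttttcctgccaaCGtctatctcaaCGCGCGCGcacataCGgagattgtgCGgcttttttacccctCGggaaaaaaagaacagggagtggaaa
Bmp4, chr14:46390620-46390919, minus strand: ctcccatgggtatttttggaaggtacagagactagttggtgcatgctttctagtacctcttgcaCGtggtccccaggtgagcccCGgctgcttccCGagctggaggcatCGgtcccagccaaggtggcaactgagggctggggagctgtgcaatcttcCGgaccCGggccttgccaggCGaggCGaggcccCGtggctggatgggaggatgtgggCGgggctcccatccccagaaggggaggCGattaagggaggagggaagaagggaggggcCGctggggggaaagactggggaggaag
Grem1, chr2:113758599-113758898, minus strand: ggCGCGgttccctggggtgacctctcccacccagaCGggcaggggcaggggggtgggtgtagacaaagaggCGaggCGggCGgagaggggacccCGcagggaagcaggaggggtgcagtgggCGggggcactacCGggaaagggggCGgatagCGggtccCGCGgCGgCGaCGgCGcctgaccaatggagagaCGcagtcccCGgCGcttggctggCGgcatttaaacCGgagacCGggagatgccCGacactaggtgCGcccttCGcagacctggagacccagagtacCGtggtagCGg
Cer1, chr4:82885102-82885401, minus strand: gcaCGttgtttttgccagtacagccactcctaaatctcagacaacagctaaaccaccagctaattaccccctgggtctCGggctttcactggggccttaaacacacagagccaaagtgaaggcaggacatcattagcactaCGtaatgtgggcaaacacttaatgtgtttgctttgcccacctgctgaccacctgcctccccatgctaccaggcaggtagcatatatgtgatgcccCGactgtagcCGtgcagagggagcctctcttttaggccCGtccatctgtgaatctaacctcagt
Nodal, chr10:61417722-61418021, plus strand: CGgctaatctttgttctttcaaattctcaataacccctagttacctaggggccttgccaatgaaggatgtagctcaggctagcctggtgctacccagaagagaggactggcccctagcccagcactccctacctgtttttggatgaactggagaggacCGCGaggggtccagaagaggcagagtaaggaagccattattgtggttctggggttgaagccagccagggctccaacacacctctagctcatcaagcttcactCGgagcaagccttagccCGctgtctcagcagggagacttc

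The windows differed in CG content. Inhbb held 23 CGs, Bmp4 held 12 and Grem1 held 28, while Cer1 held 6 and Nodal held 5. RefSeq windows were found for 26 of the 39 members; the members not shown in the plot of CpG content are Amh, Bambi, Bmp1, Bmp2, Bmp3, Bmp7, Fst, Gdf5, Gdf6, Lefty1, Lefty2, Nog and Tgfb3. Of the 26 windows, 11 were CpG rich (CpG observed over expected above 0.6 and GC above 50%), and 33.3% of all 32851 RefSeq windows met the same limits. In 15 windows the start site lay in a region called in both genotypes, and 10 of these were CpG rich, with a median of 25 CGs and a median observed over expected ratio of 0.73. In the other 11 windows the median was 6 CGs with a ratio of 0.30, and 1 was CpG rich. That window belongs to Gdf11, an axial patterning ligand, whose start site lay in the gap between its 2 shared regions. Bmp4, Gdf1, Inha, Inhba and Tgfb2 had a start site in a shared region without a CpG-rich window. The RefSeq start site of Bmp8a lay outside a shared region, although another of its promoter rows has its start site inside one. The windows of Bmpr1b and Acvr1c lay at internal start sites, those of their promoter rows of highest level. The upstream ends of both RefSeq genes lay inside their shared regions. Both genes are therefore among the 11 although the mark covered their upstream ends.

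**Figure D1:**
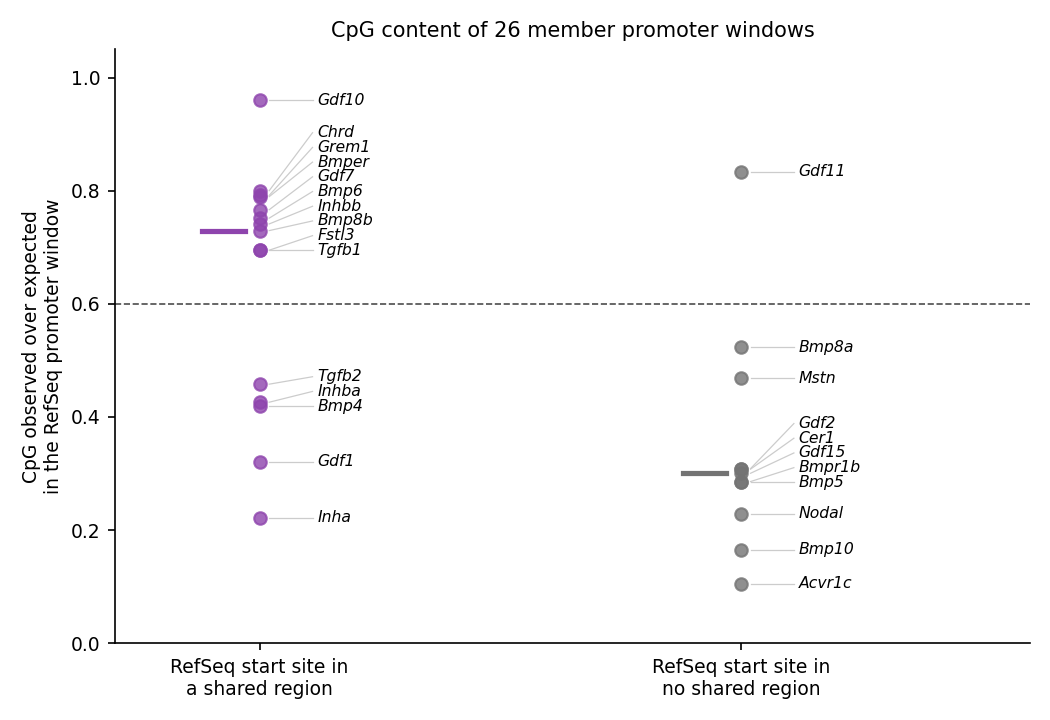
CpG observed over expected in the 26 RefSeq promoter windows, by whether the RefSeq start site lay in a region called in both genotypes. Points are genes, short bars are medians (0.73 on the left, 0.30 on the right) and the dashed line is 0.6. Gdf11 is the 1 window on the right above the line. The windows of Bmpr1b and Acvr1c, on the right, lay at internal start sites. The upstream ends of both genes lay in shared regions.

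H3K27me3 over these genes was broad. Of the 42 regions, 35 at 29 genes were called in both genotypes (shared), 5 at Lefty2, Gdf2, Gdf5 and Cer1 in DKO alone, and 2 at Bmp8b and Bmp10 in WT alone. The shared member regions had a median length of 5277 bp and ran from 808 to 12082 bp, against a median of 1334 bp over all shared regions. A length of 5000 bp or more was reached by 54.3% of the shared member regions and by 8.83% of all shared regions. Member regions were taken for overlap with a promoter row, which favours long regions, and the background holds regions on and off promoters. Shared regions at the promoters of other genes were not compared. Regions called in 1 genotype were 396 to 972 bp long. The start site lay in a shared region for 27 genes, namely 16 ligand, 9 antagonist or modulator and 2 receptor genes. Mstn, Bmp5, Nodal, Amh and Gdf15, all ligands, had no region.

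Levels per length spanned a wide range among the members. On the scale of CPM per kb of region, Bmp6 averaged 34.5 ± 2.32 in DKO and 39.3 ± 2.30 in WT libraries (SD, n = 4 and 5), and Inhbb averaged 29.8 ± 4.78 in DKO and 39.3 ± 1.55 in WT libraries. The lowest WT level, 5.60 ± 3.22 CPM per kb, was that of the Lefty2 region, which averaged 9.34 ± 2.61 in DKO libraries. The ratio of mean H3K27me3 CPM to mean total H3 CPM in the shared regions was 0.469 to 1.97 in DKO and 0.301 to 2.35 in WT libraries. In the 5 regions called in DKO alone it was 0.463 to 0.665 in DKO and 0.269 to 0.428 in WT libraries, so these lay at the low end of the range.

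**Figure D2:**
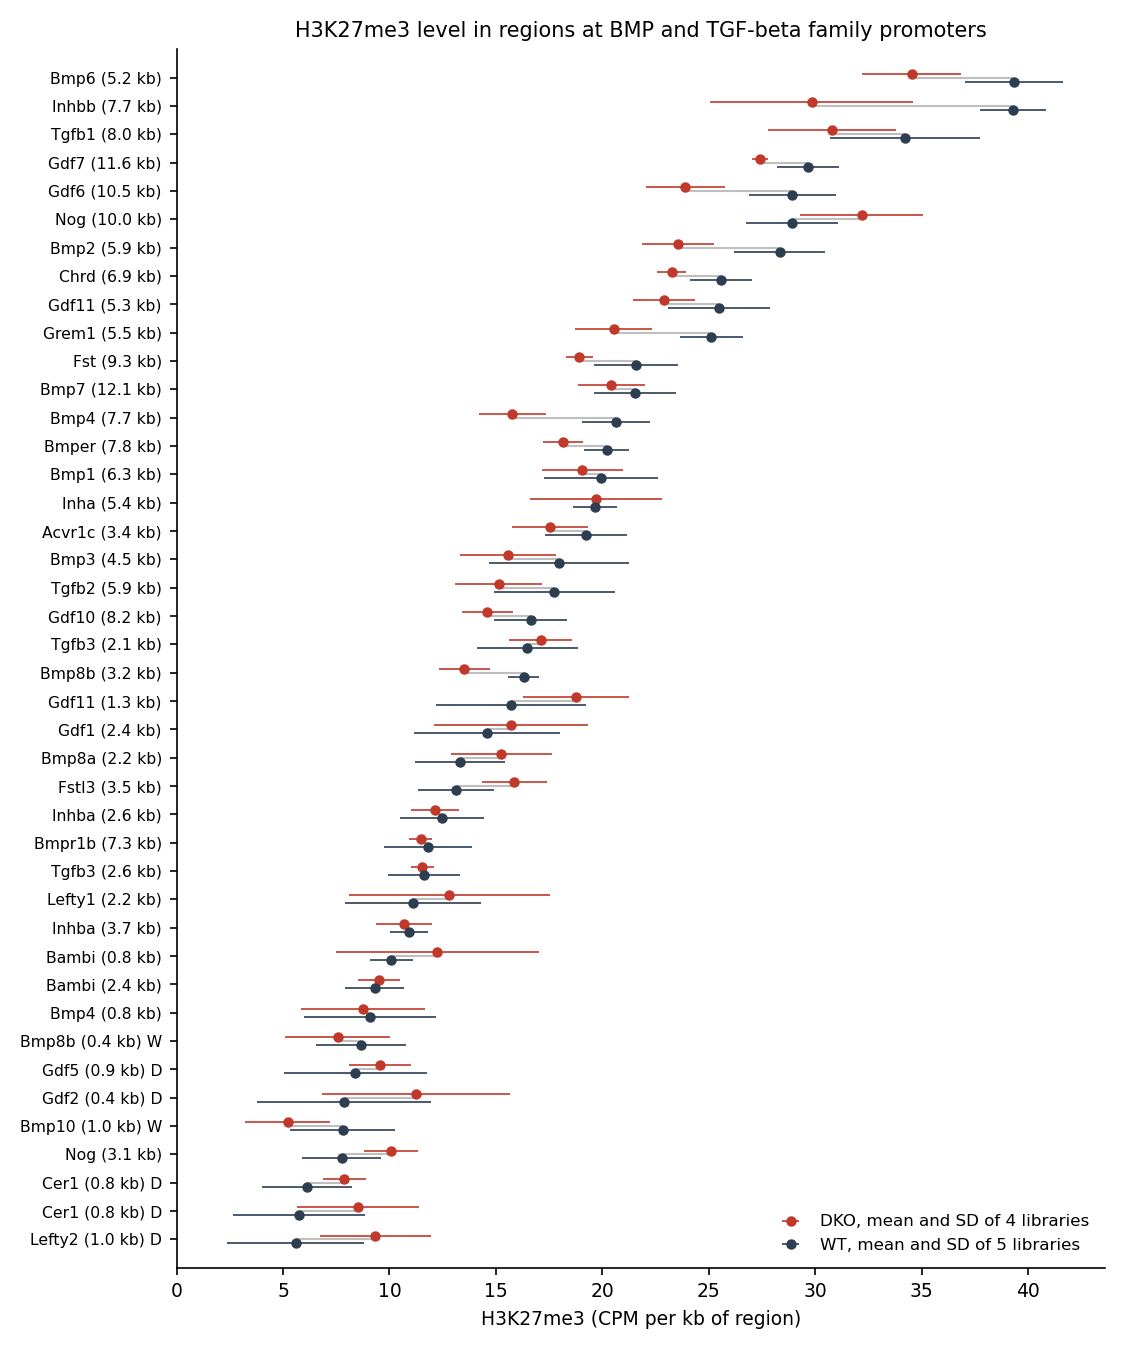
H3K27me3 in the 42 member regions, as mean CPM per kb with SD, for DKO (4 libraries, red) and WT (5 libraries, dark), in the order of the WT level. D marks regions called in DKO alone and W those called in WT alone. Bmp6 and Inhbb were highest in WT libraries and the Lefty2 region was lowest.

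Promoter rows also spanned a wide range of levels. Each row covers the 2000 bp before a start site and the 1000 bp after it, and a read over more than 1 row was not counted, so the level of a row that overlaps others leaves out the reads over the shared bases. Of the 27 genes whose best row was free of overlap, 16 had at least 50% of the row covered by regions, with mean levels of 51.9 to 265.5 CPM over the 9 libraries. The other 11 had less coverage, with 4.71 to 42.1 CPM. Among these, the best rows of Acvr1c and Bmpr1b lay at internal start sites, outside the shared regions of these genes. Their rows over the shared regions had only 143 and 212 bp of their own, so their levels leave out most reads there. The 95th and 99th percentiles over the best rows of all genes were 60.3 and 176 CPM. For 11 members fewer than 1000 bp of the row were its own, among them Chrd with 0 bp, Fst with 2 bp, Bmp3 with 12 bp, Mstn with 17 bp and Bmp4 with 119 bp, and for such genes the regions are the better measure where there is one.

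One comparison asked whether the mark over these genes differed between DKO and WT. At regions, Inhbb, Bmp4, Gdf6, Bmp2 and the antagonist Grem1 were lower in DKO, with log2 fold changes of -0.27 to -0.40, and no member region was called higher. All 5 are broad domains around a start site. At promoter rows, no member passed the test.

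Of the 41 regions tested with edgeR (adjusted p under 0.05), 5 were lower in DKO and 0 higher. Over all 40418 regions tested the shares were 1.88% lower and 2.16% higher, so the member share of 12.2% lower was above the background. The 5 called regions were 5525 to 10498 bp long. Among shared regions of 5000 bp or more, a length limit chosen after the values were seen, 5 of 19 at the members (26.3%) were lower, against a background of 13.9% lower and 4.78% higher over 2489 regions. The median log2 fold change of these 19 was -0.16, with 17 negative, and that of all 2489 was -0.09. The 16 shorter shared member regions had a median of 0.04, with 9 positive, and the 24984 shorter shared regions over all had a median of -0.05. The shares of negative and positive values in these backgrounds were not counted. DESeq2 called 4 member regions lower and 0 higher, with backgrounds of 2.65% and 2.37%.

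Among the ligands, 4 of 24 tested regions were called lower, and over the 21 shared ones 17 were negative with a median log2 fold change of -0.16. The share of negative values over all shared regions was not counted. Inhbb encodes the beta B subunit of activin and inhibin. Its region, chr1:119417151-119424882 (7732 bp), held 260.3, 233, 178 and 251 CPM in DKO replicates 1 to 4, against 289.6, 319, 301, 312 and 297 CPM in WT replicates 1 to 5. Every DKO library was below every WT library, and DKO replicate 3 was the lowest. The means were 231 ± 36.9 CPM in DKO and 304 ± 11.95 CPM in WT (SD, n = 4 and 5), with a log2 fold change of -0.40, SE 0.07 and an edgeR adjusted p of 3.74e-05. The Inhbb call held in each of the 9 fits that left out a library, with log2 fold changes of -0.46 to -0.28. Its promoter row, chr1:119421248-119424248, was the most marked of all members, at 232 ± 38.3 CPM in DKO and 292 ± 28.8 CPM in WT. There too all DKO libraries were below all WT libraries, and the log2 fold change of -0.34 (SE 0.11) had an edgeR adjusted p of 0.135.

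Bmp4 encodes the BMP ligand that acts with leukaemia inhibitory factor in ESC culture and later in mesoderm formation. Its main region, chr14:46384062-46391773 (7712 bp), held 128, 116, 108 and 135 CPM in DKO libraries, against 173, 143, 166, 150.5 and 164 CPM in WT libraries. The groups did not overlap, and the nearest libraries were DKO replicate 4 and WT replicate 2. Means were 122 ± 12.1 CPM in DKO and 159 ± 12.3 CPM in WT, a log2 fold change of -0.39 (SE 0.09), for which edgeR gave an adjusted p of 0.00138. It was called in all 9 fits that left out a library. A second, 844 bp shared region upstream averaged 7.40 ± 2.46 CPM in DKO and 7.67 ± 2.61 CPM in WT, and these groups overlapped.

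Gdf6, a ligand needed for joints, skull and eye, lies under one of the longest member regions, chr4:9841716-9852213 (10498 bp). That region held 277, 253, 232 and 241 CPM in DKO libraries, against 314, 318, 287, 324 and 275 CPM in WT libraries. DKO replicate 1 was above WT replicate 5, and the other DKO libraries were below all WT libraries. The log2 fold change was -0.28 (SE 0.07), and the edgeR adjusted p was 0.0095. Without DKO replicate 3 it was -0.23 with an adjusted p of 0.0852. Its promoter row alone, at 219 ± 36.0 CPM in DKO and 229 ± 19.1 CPM in WT, gave -0.06 (SE 0.11).

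Bmp2, a BMP ligand of heart and bone development, had its region at chr2:133550482-133556380 (5899 bp). It held 143, 150.2, 126 and 136 CPM in DKO libraries, against 186, 174, 157, 159 and 159 CPM in WT libraries. No DKO library reached the lowest WT library. With a log2 fold change of -0.27, SE 0.08 and an edgeR adjusted p of 0.0424 it was the weakest of the calls, and 2 of the 9 fits that left out a library kept it, those without WT replicate 3 or 4, with adjusted p up to 0.204 in the rest. The DESeq2 adjusted p was 0.0517. The edgeR adjusted p was 0.0534 with an offset for chromosome 11 and 0.0527 with DESeq2 size factors. Its promoter row averaged 156 ± 23.9 CPM in DKO and 187 ± 26.97 CPM in WT, with an edgeR adjusted p of 0.396.

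The other ligands with broad domains gave smaller differences that did not pass. Bmp6 had 186, 185, 160.5 and 180.3 CPM in DKO libraries, against 199, 222, 200.0, 189.9 and 203 CPM in WT libraries. All DKO libraries were below all WT libraries there, with a log2 fold change of -0.19 (SE 0.08, edgeR adjusted p of 0.155). Gdf7, a roof plate ligand, showed the same order at 318 ± 4.45 CPM in DKO and 344 ± 17.1 CPM in WT (log2 fold change -0.11, edgeR adjusted p of 0.336). Tgfb1, the TGF-beta ligand best known from immune cells, had 267, 268, 224 and 229 CPM in DKO libraries, against 314, 245, 291, 255 and 267 CPM in WT libraries. Those groups overlapped, and the log2 fold change was -0.16 (edgeR adjusted p of 0.21). Bmp7, a ligand of kidney development under the longest member region (12082 bp), had 273, 243, 245 and 226 CPM in DKO libraries, against 262, 279.9, 284, 246 and 229 CPM in WT libraries. DKO replicate 4 was below all WT libraries and the rest overlapped, with a log2 fold change of -0.07 (SE 0.07). The longer Gdf11 region held 123, 122, 110.1 and 128 CPM in DKO libraries, against 157, 128, 132, 127 and 128 CPM in WT libraries, a log2 fold change of -0.16 (edgeR adjusted p of 0.318). WT replicate 1 stood above the rest of its group there.

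At lower levels, Bmp8b, which acts in germ cell formation, had a 3214 bp shared region with 47.5, 44.8, 43.0 and 38.3 CPM in DKO libraries, against 54.7, 53.0, 48.4, 52.2 and 53.4 CPM in WT libraries. The groups did not overlap, and the log2 fold change of -0.28 (SE 0.12) had an edgeR adjusted p of 0.188. Its 396 bp WT-specific region held too few counts for the test. Bmp10, a heart ligand on chromosome 6, carried a 972 bp region called in WT alone, with 7.71, 3.70, 5.34 and 3.55 CPM in DKO libraries, against 6.18, 7.07, 10.5, 4.68 and 9.47 CPM in WT libraries. The groups overlapped, the log2 fold change was -0.58 (SE 0.28), for which edgeR gave an adjusted p of 0.229, and such a region is lower in DKO by selection. The Bmp10 promoter row had 28.1 ± 1.72 CPM in DKO and 28.2 ± 4.26 CPM in WT. Activin beta A (Inhba), Tgfb2, Tgfb3, Bmp3, Gdf10, Gdf1, Bmp8a, Gdf2 and Gdf5 had regions with log2 fold changes between -0.24 and 0.46, none past the test.

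**Figure D3:**
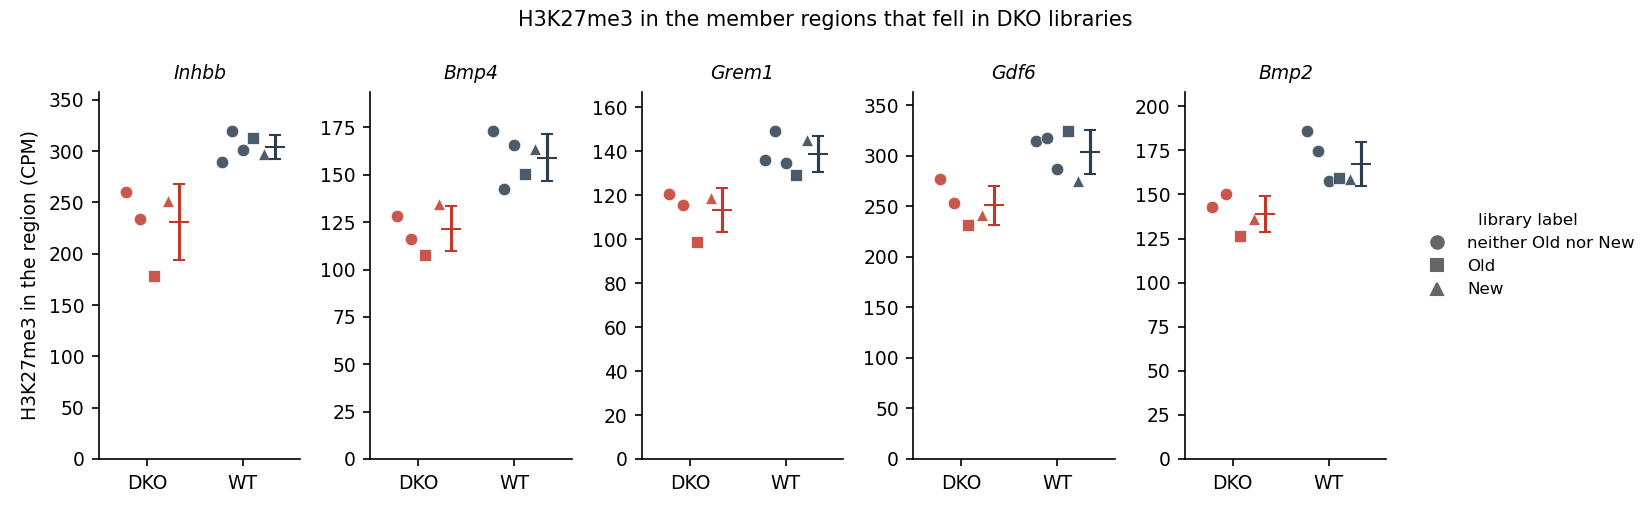
H3K27me3 CPM per library in the 5 regions that fell in DKO, with DKO left of WT and the mean ± SD (n = 4 and 5) beside the points; the marker shape gives the word in the library label. DKO replicate 3 (red square) is the lowest DKO library in all 5 panels, and the groups overlap only for Gdf6.

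DKO replicate 3 was the lowest of the 4 DKO libraries in 14 of the 19 long shared member regions and in all 5 called ones. Its share over all 2489 long shared regions was not counted, and the called regions were picked for low DKO values. Without DKO replicate 3, 2 regions were called, Inhbb and Bmp4. Without DKO replicate 2, WT replicate 2 or WT replicate 5 the count was 3 each time. All DKO libraries lay below all WT libraries in 8 of the 41 tested regions, against 3.4% of all tested regions, and above them in 0, against 3.36%. Among the 19 long shared regions the count was 7, against 17.7% of the 2489. Within the libraries labelled Old or New only Inhbb passed, at -0.50, and within those with neither word no region passed, with values of -0.21 to -0.40 for the 5. An offset that removes the trend of the fold change with level, fitted per library, kept the calls of Inhbb, at -0.28, and Bmp4, at -0.31. With it Gdf6 was at -0.15, Bmp2 at -0.19 and Grem1 at -0.23, with edgeR adjusted p of 0.0912 to 0.1599.

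Among the antagonists and modulators, 1 of 15 tested regions was called lower, and over the 12 shared ones 5 were negative with a median log2 fold change of 0.02. The other 3, at Cer1 and Lefty2, were called in DKO alone and are higher by selection. The difference in median between ligands and antagonists was not tested. The 12 shared regions include those of Nog, on chromosome 11, at 0.15 and 0.38. With an offset for chromosome 11 these were -0.18 and 0.04, so the antagonist median depends on that scaling. Region length also differed. The 5 negative antagonist regions were all of 5000 bp or more, and of the positive ones only those of Inha and the longer Nog region were. Every ligand region of that length was negative. The sets were not compared at equal length. Grem1 encodes gremlin, which binds BMP2 and BMP4. Its region, chr2:113755305-113760829 (5525 bp), held 120.3, 116, 98.7 and 119 CPM in DKO libraries, against 136, 149, 135, 129 and 145 CPM in WT libraries. All DKO libraries were below all WT libraries, with a log2 fold change of -0.29, SE 0.09 and an edgeR adjusted p of 0.0356. The Grem1 call held in 5 of the 9 fits that left out a library and was lost without DKO replicate 2, DKO replicate 3, WT replicate 2 or WT replicate 5, with adjusted p up to 0.223. Its promoter row had 179.8, 169, 144 and 195 CPM in DKO libraries, against 195, 221, 209, 184 and 209.6 CPM in WT libraries, and the edgeR adjusted p was 0.432.

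Chordin (Chrd) and follistatin (Fst), which bind BMPs and activins, had broad regions with 160.1 ± 4.79 and 177 ± 5.91 CPM in DKO libraries, against 176 ± 10.1 and 201 ± 18.3 CPM in WT libraries. Chrd was lower in every DKO library than in every WT library, but neither passed, with edgeR adjusted p of 0.338 and 0.146. Bmper, a BMP-binding protein, had 151, 138, 134 and 144 CPM in DKO libraries, against 166, 168, 152, 149 and 154 CPM in WT libraries, with a log2 fold change of -0.15 and an edgeR adjusted p of 0.3004. DKO replicate 1 was above WT replicate 4, and the other DKO libraries were below all WT libraries. Bmp1, a protease that cleaves chordin, and Inha, the inhibin alpha subunit, had log2 fold changes of -0.07 and 0.01.

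Nog, which encodes noggin, had the highest log2 fold change among the 19 long shared regions. The region over its start site, chr11:89293332-89303293 (9962 bp), held 302, 352, 291 and 336 CPM in DKO libraries, against 309.9, 273, 308, 289 and 259.7 CPM in WT libraries. DKO replicates 2 and 4 were above all WT libraries and the rest overlapped. The log2 fold change was 0.15 (SE 0.07), and the edgeR adjusted p was 0.191. Once each library was offset by its own chromosome 11 level, it was -0.18, so the direction of the Nog difference depended on that scaling. With the offset for level it was 0.29 with an edgeR adjusted p of 0.000939, past the test. The neighbouring 3113 bp region had 0.38 (edgeR adjusted p of 0.14), and 0.04 with the offset. Total H3 in the 9962 bp region was 202 and 163 CPM in DKO libraries, against 167 and 159.9 CPM in WT libraries.

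Lefty1 and Lefty2 encode secreted inhibitors of Nodal, and Cer1 encodes cerberus, which binds Nodal and BMPs. Their levels were low and spread widely. The Lefty2 promoter row had 40.2, 35.4, 34.2 and 21.7 CPM in DKO libraries, against 14.6, 15.1, 35.4, 29.5 and 25.4 CPM in WT libraries. The groups overlapped, with a log2 fold change of 0.42 and an edgeR adjusted p of 0.463. Within the libraries with neither word it was 0.81, and within those labelled Old or New 0.06. A 966 bp region over its start site, chr1:180893051-180894016, was called in DKO alone, and held 11.6, 10.2, 8.67 and 5.68 CPM in DKO libraries, against 1.32, 3.54, 9.47, 6.63 and 6.09 CPM in WT libraries. Its log2 fold change was 0.70 (SE 0.27), for which edgeR gave an adjusted p of 0.115. Without WT replicate 3 it was 0.94 with an adjusted p of 0.0487. A region called in DKO alone is higher there by selection.

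Lefty1, named here after its values were seen, split by library label. Its promoter row had 68.3 and 77.4 CPM in DKO replicates 1 and 2, against 26.3, 48.1 and 58.6 CPM in WT replicates 1 to 3, all with neither word in the label. The Old and New libraries had 44.9 and 31.7 CPM in DKO, against 62.1 and 50.1 CPM in WT. The log2 fold change was 0.75 within the libraries with neither word and -0.52 within those labelled Old or New, and 0.14 over all. The test of that difference had an unadjusted p of 0.000109 and an edgeR adjusted p of 0.9997, and 0 of the 31 member rows passed it.

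The Cer1 promoter row had 23.1, 48.6, 32.0 and 45.8 CPM in DKO libraries, against 30.2, 24.7, 30.5, 23.1 and 18.5 CPM in WT libraries. DKO replicates 2, 3 and 4, all of clone 13, were above all WT libraries, and replicate 1, of clone 4, was not. The log2 fold change was 0.58 (SE 0.20), for which edgeR gave an adjusted p of 0.188, and 0.74 without replicate 1 (adjusted p of 0.0692). Within the libraries with neither word it was 0.30, and within those labelled Old or New 0.91. The pair of Cer1 regions called in DKO alone, 807 and 762 bp long, averaged 6.36 ± 0.813 and 6.49 ± 2.17 CPM in DKO libraries, against 4.96 ± 1.71 and 4.37 ± 2.36 CPM in WT libraries. The remaining modulators, Fstl3, which binds activins, and the pseudoreceptor Bambi, had region log2 fold changes of 0.04 to 0.28 and did not pass.

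**Figure D4:**
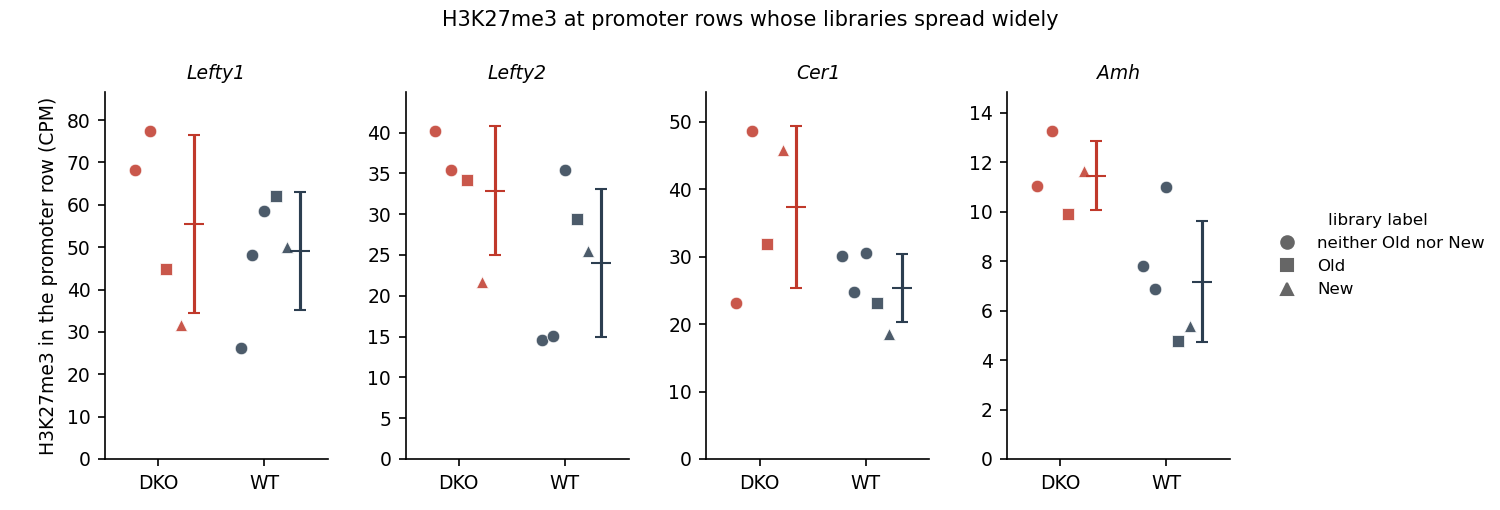
H3K27me3 CPM per library at the promoter rows of Lefty1, Lefty2, Cer1 and Amh, with DKO left of WT and mean ± SD (n = 4 and 5) beside the points; the marker shape gives the word in the library label. None of the 4 passed the test, and for Lefty1 the circles and the squares and triangles differ in which genotype is higher.

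Neither receptor region passed the test. Bmpr1b, a type I BMP receptor, had a 7276 bp region with 83.4 ± 4.01 CPM in DKO and 85.8 ± 15.0 CPM in WT. Acvr1c, a type I receptor for Nodal and activin, had a 3368 bp region with 59.0 ± 6.04 CPM in DKO and 64.8 ± 6.46 CPM in WT. Their log2 fold changes were -0.04 and -0.15, with edgeR adjusted p of 0.84 and 0.485.

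Over promoter rows, 31 of the 39 genes had enough counts to be tested, and 0 were called lower or higher by edgeR, with backgrounds of 0.19% lower and 0.438% higher of 32647 rows. At an unadjusted p under 0.05 there were 3 lower and 3 higher of the 31, against 10.2% of all rows in either direction, and DESeq2 called 0, with backgrounds of 0.663% lower and 1.2% higher. The 31 genes passed through the count filter, and Mstn, Tgfb2, Bmp3, Gdf15, Nodal, Fst, Bmp4 and Chrd did not. For Acvr1c and Bmpr1b the row read lay at an internal start site outside any region. The median log2 fold change was 0.07 over the 31, with 18 positive, and -0.01 over all tested rows. Inhbb was the 1 gene with all DKO libraries below all WT libraries and Nog the 1 with all above, where the backgrounds were 1.61% and 1.74%. The Nog row had 15.1, 18.8, 14.5 and 14.2 CPM in DKO libraries, against 13.6, 6.87, 13.4, 13.5 and 10.0 CPM in WT libraries, with a log2 fold change of 0.40 (edgeR adjusted p of 0.669) that was 0.09 with the chromosome 11 offset. Of the Nog row 609 bp were its own. Amh, the ligand that makes the Müllerian ducts regress, had 11.05, 13.3, 9.89 and 11.7 CPM in DKO libraries, against 7.79, 6.87, 10.99, 4.78 and 5.39 CPM in WT libraries. Its groups overlapped at WT replicate 3 and its log2 fold change of 0.72 (SE 0.35) had an edgeR adjusted p of 0.455. The Nodal row, free of overlap and of regions, averaged 2.73 ± 2.72 CPM in DKO and 6.29 ± 3.94 CPM in WT.

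Total H3 was tested at 34 of the member regions, over 2 DKO and 2 WT libraries. Of these, 0 were called by edgeR, with backgrounds of 0.0158% lower and 0.00528% higher of 18938 regions, and DESeq2 also called 0, with a background of 0%. The region of Bmper had the 1 unadjusted p under 0.05, with 166 and 135 CPM in DKO libraries and 82.2 and 132 CPM in WT libraries, a log2 fold change of 0.45. The median log2 fold change was 0.01, and the range was -0.70 to 0.45. At the 5 regions with less H3K27me3 the total H3 values were 0.01 for Inhbb, 0.30 for Bmp4, 0.12 for Gdf6, 0.14 for Bmp2 and -0.30 for Grem1, with SEs of 0.18 to 0.26. For Grem1 the total H3 difference was as large as that of the mark, at 63.1 and 67.4 CPM in DKO libraries and 84.4 and 77.0 CPM in WT libraries, and the ratio of mark to H3 was 1.74 in DKO and 1.72 in WT. For Inhbb that ratio was 1.75 in DKO and 2.35 in WT.

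**Figure D5:**
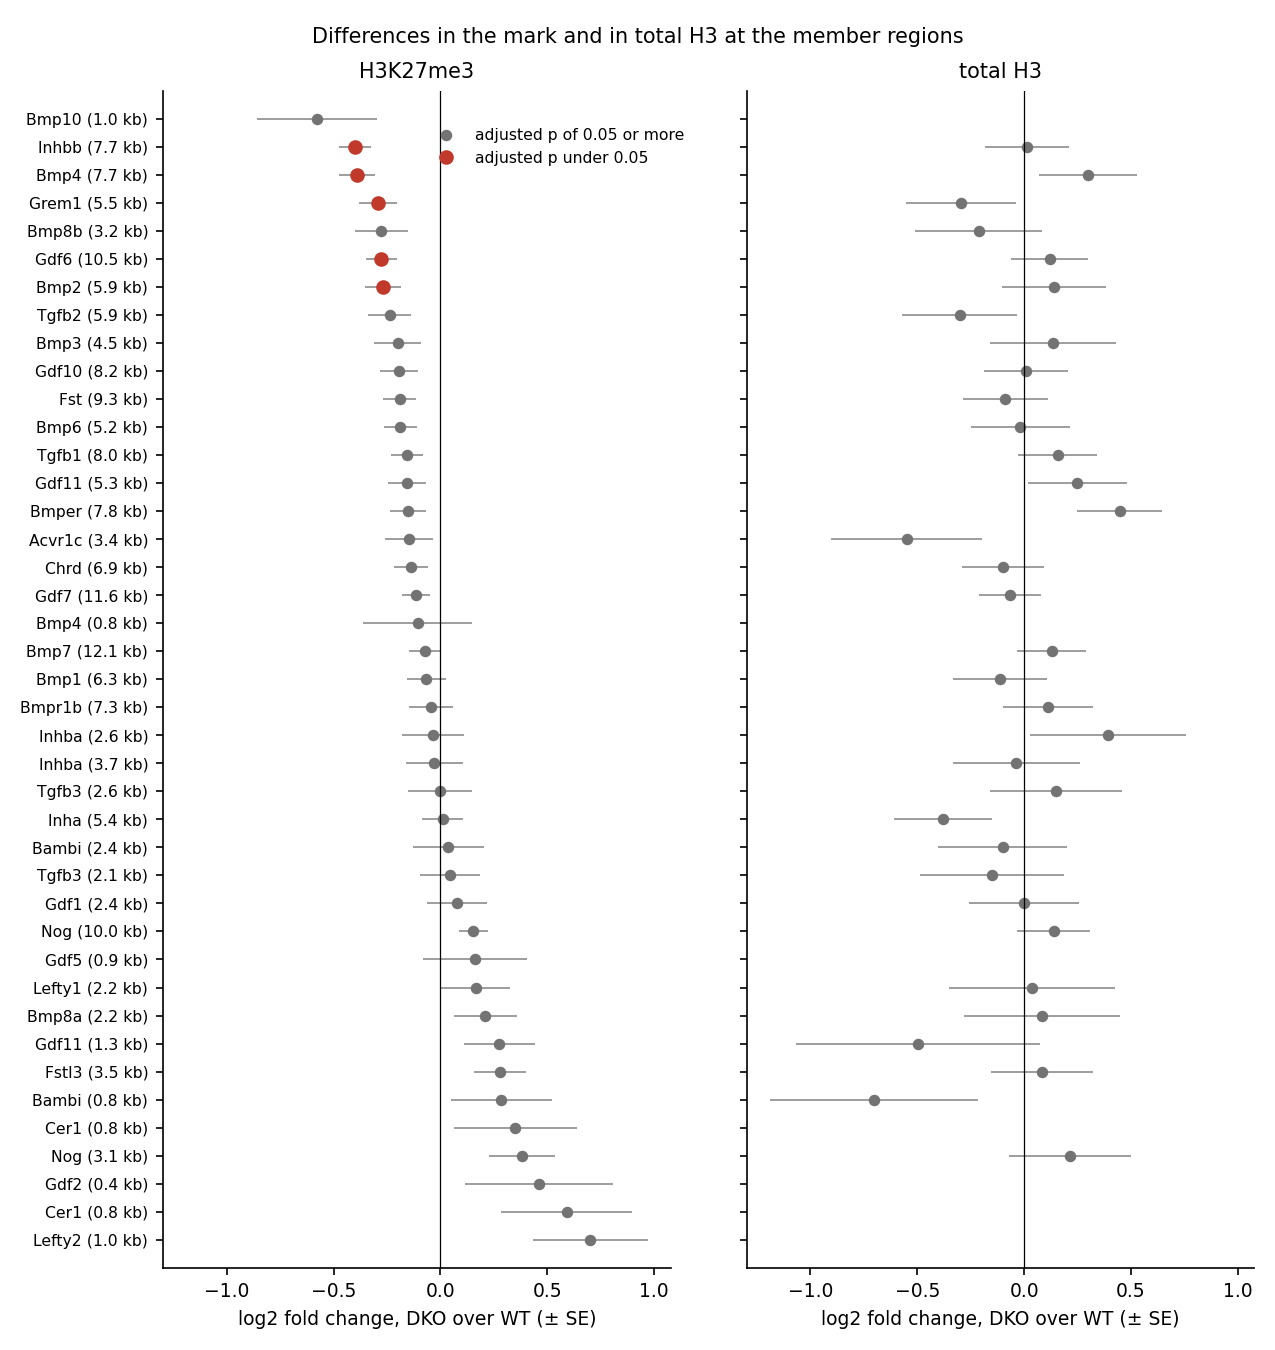
Log2 fold change (DKO over WT, ± SE) of H3K27me3 on the left and total H3 on the right in the tested member regions, with region lengths in kb. The 5 red points, Inhbb, Bmp4, Grem1, Gdf6 and Bmp2, passed at an edgeR adjusted p under 0.05, and no total H3 value did.

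Other genes of the pathway were read from a list of 53, of which 38 had enough counts at promoter rows. Of these, 1 was called higher and 0 lower by edgeR, or 2.63%, where the shares over all promoter rows were 0.438% higher and 0.19% lower. At an unadjusted p under 0.05 there were 6 of the 38, against 10.2% of all rows, and the median log2 fold change was 0.03. The called gene was Bmpr2, the type II BMP receptor, at chr1:59761400-59764400. Regions covered only 2.30% of this row, and it held 8 to 23 counts in WT libraries, so its level was low. Its row had 40.2, 26.5, 26.6 and 23.3 CPM in DKO libraries, against 14.6, 10.996, 17.1, 18.3 and 15.4 CPM in WT libraries. All DKO libraries were above all WT libraries, with a log2 fold change of 0.89, SE 0.22 and an edgeR adjusted p of 0.0224, and DESeq2 did not call it. The Bmpr2 call was lost without DKO replicate 1, 2 or 3, or WT replicate 2 or 5, with log2 fold changes of 0.71 to 0.93 and adjusted p up to 0.177. The other values named by the rule were 0.57 for the oocyte ligand Gdf9 and -0.26 for the SMAD target Id2 and -0.39 for the SMAD repressor Skil, none past the test. Gdf9 lies on chromosome 11, and its value was 0.26 with the chromosome 11 offset, 1.10 within the libraries labelled Old or New and 0.04 within those with neither word.

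Marker promoters were read as levels of the mark, since the assay holds no RNA. The mark was at 0 to 94.1 CPM in DKO and 0 to 107.6 CPM in WT over 8 ESC genes, where Pou5f1 had 4.55 CPM in DKO and 4.94 CPM in WT. The 5 neural genes had 3.92 to 342 CPM in DKO and 4.83 to 438 CPM in WT, the 5 trophoblast genes 7.77 to 340.1 CPM in DKO and 12.1 to 377 CPM in WT, and the 6 fibroblast genes 0.276 to 122 CPM in DKO and 0.159 to 99.8 CPM in WT. The rows of Nanog, Zfp42, Col1a2, Col3a1, Postn, Twist2, Eomes, Hand1 and Nkx2-2 had under 1000 bp of their own, so reads over the rest of these rows were not counted.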

How the data were processed

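H3K27me3 ChIP-seq was deposited by the authors as raw read counts per promoter row and per region, and total H3 as raw counts per region, in 1 column per library. Promoter counts were made with featureCounts 2.0.3, per the file header, without strand and without counting a read over more than 1 row. The submitters' processing notes name build mm10, Bowtie2, MACS2, bedtools and Subread without their roles. The deposited region lists (shared, DKO-specific, WT-specific) hold coordinates with no score, and the sources used here do not say how replicates entered the calling. The meaning of the b6 tag in the column names is also not stated.

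Libraries were grouped by their labels. Of the promoter rows, 38 (chromosome M and 1 overlong row) were left out. DKO was compared with WT with edgeR 4.0.16 (quasi-likelihood F test, TMM, two-sided, Benjamini-Hochberg over all rows tested) in R 4.3.3 after filterByExpr (minimum count 10, minimum total 15), with no covariate. A gene was read from its promoter row of highest mean CPM. Alternatives were DESeq2 1.42.0, its size factors, no filter, terms for library set and replicate number, offsets for chromosome 11 and for level, subsets of libraries, rows and regions, and leaving out each library. The scripts were tested on simulated data.

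Per-library values are given for called members, the 8 members of highest mean CPM, the 4 of largest log2 fold change in each direction, and tested members on chromosomes 11 and 6. The members and lists were chosen with earlier results of these data known. Total H3 libraries held 525847 to 736566 counts in DKO and 636691 to 699720 in WT, so their fold changes are less precise. Libraries of a group differed by more than sampling noise in H3K27me3, with chi-square per degree of freedom up to 2.18. Pairs that include WT replicate 1 had 1.77 to 2.18, and all other H3K27me3 pairs had 1.24 to 1.45. WT replicate 1 was thus the library that differed most from its group. The lowest value, 1.06, was between the WT total H3 libraries.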

Additional observations from a re-analysis of the deposited data

Results flagged for a closer look

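In the 5277 bp Gdf11 region, WT replicate 1 held 156.7 CPM of H3K27me3, and the other 4 WT libraries held 127 to 132 CPM, so that it stood far from its group. Of 72 groups of member values checked in this way it was the 1 found, and chance gives about 1 in 20. WT replicate 1 was also the library that differed most from the other WT libraries over all regions compared.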

How the results depend on the processing

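No alternative called a member promoter higher, and 1 was called lower with the library set term and 1 when only rows with a region were fitted, against 0. The 5 member regions called lower became 2 with the level offset, 1 within Old or New libraries, 0 within libraries with neither word, 3 with the rmce WT libraries alone, and 2 to 5 when a library was left out. Bmp2 was the call lost with the chromosome 11 offset and with DESeq2 size factors. Regions called higher were 1 with the level offset (Nog) and 0 to 1 when a library was left out. The median region log2 fold change of -0.07 was -0.0090 with the level offset and -0.11 to -0.0017 when a library was left out, and that of total H3 was then -0.019 to 0.021. Of the other pathway genes, 1 was called lower when only rows with a region were fitted, and the 1 called higher was lost (0) under DESeq2, within either library set, with the rmce WT libraries alone and under the replicate block, and the count was 0 to 1 when a library was left out. Their median was 0.16 within Old or New libraries and 0.092 with the rmce WT libraries. Of 726 values of named genes under alternatives, 27 changed sign. For the Bmp10 promoter these were 0.0025 without the count filter, 0.14 within neither, and -0.090 to 0.076 when a library was left out. The Bmp7 promoter had 0.037 with the level offset, 0.0043 with the library set term, 0.12 within Old or New, 0.13 with the rmce WT libraries, and -0.11 to 0.032 when a library was left out. With the level offset the Bmper promoter had 0.0052, the Gdf6 promoter 0.012 and the Bmp7 region 0.050. Within neither, the Bmper promoter had 0.033, the Gdf6 promoter 0.091, the Tgfb1 promoter 0.045 and the 844 bp Bmp4 region 0.18. When a library was left out the Bmper promoter had -0.11 to 0.0060, the Gdf6 promoter -0.14 to 0.035 and the Tgfb1 promoter -0.18 to 0.0076, each positive only without DKO replicate 3. The 844 bp Bmp4 region also had 0.018 under the replicate block and -0.29 to 0.10 when a library was left out. The long Nog region had -0.18 with the chromosome 11 offset. The Id2 promoter had 0.46 within Old or New and -0.58 to 0.00090 when a library was left out. The cause of these changes was not tested. Libraries with the same replicate number did not deviate together (correlations of -0.03 to 0.07 over regions), so the numbers do not pair them. Over all region pairs WT replicate 1 gave the lowest value, -0.15 with DKO replicate 4, and the highest, 0.14 with DKO replicate 2. The New pair had 0.09 and the Old pair 0.006 over regions, and 0.04 and 0.06 over promoter rows. Whether libraries pair by name was not tested. The replicate block left out WT replicate 5, which has no DKO library of the same number. It also joined libraries that differ in the words Old and New. It gave 4 regions called lower, with Grem1 lost at -0.27 (edgeR adjusted p of 0.0804). Leaving out WT replicate 5 alone also lost Grem1, at -0.27 (edgeR adjusted p of 0.105). With the library set term none of the 5 calls was lost. Low counts limit the short regions, and 2 libraries a group limit total H3.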
